A study of Mus musculus with 8 samples.

Results

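The T cell receptor has no signalling domain of its own and works through the CD3 chains that are assembled with it. The genes described here encode those chains (Cd3d, Cd3e, Cd3g and Cd247), the first kinases and the adaptor they engage (Lck, Zap70 and Lat) and surface proteins that tune the signal (Thy1, Cd2 and Cd5). They were chosen by gene symbol, as all probe sets annotated with exactly 1 symbol out of these 10. A probe set was available for 9 of the 10 genes, 1 probe set each, among 18820 genes on the array, and Lck was not analysed here.

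When a receptor binds its peptide, Lck phosphorylates paired tyrosine motifs, called ITAMs, in the cytoplasmic tails of the CD3 chains. Zap70 docks on these motifs and phosphorylates Lat, a membrane adaptor on which the calcium and Ras branches of the pathway are assembled. Cd2 adds an adhesive and costimulatory signal, Cd5 damps receptor signalling, and Thy1 is a small lipid-anchored glycoprotein that marks mouse T cells but is also made by fibroblasts and neurons.

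The study compared 4 samples of T cells from xenografts under rejection with 4 samples from tolerated xenografts, each on its own whole-transcript array. All hosts were wildtype CD1 mice grafted with tissue made from human embryonic stem cells. Rejecting hosts were untreated, tolerant hosts had received antibodies against CD4, CD8 and CD40L, and CD3-positive cells were isolated from the grafts at day 30. Neither the antibody schedule nor the number of mice behind a sample is stated in the labels, so a p-value reflects the spread among samples, and that spread may be technical. The cells were isolated as CD3-positive, so the CD3 complex was a condition of sampling, and in bulk RNA fewer T cells and less RNA per cell cannot be told apart.

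Levels are given as log2 RMA values, and each difference is the tolerant mean less the rejecting mean. Each array was given a background line, the 99th percentile of its 1180 olfactory and vomeronasal receptor probe sets, which lay between 0.991 and 1.35. The arrays formed 2 sets by label number and not by group. On the 4 arrays numbered 1 and 2, between 2.51% and 5.57% of genes lay above the line, and on the 4 arrays numbered 3 and 4 between 9.09% and 16.3% did. Each comparison was therefore made on the 8 arrays together and on either set alone.

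Cd3g, Cd3d and Cd3e lie next to each other on mouse chromosome 9, where Cd3g and Cd3d are transcribed away from each other. Their start-site windows are shown as a description, and whether sequence bears on the array readings was not tested. Each window runs from 250 bases before to 50 bases after the annotated start, on the gene's own strand, from RefSeq on GRCm38.p6. The windows are chr9:44980382-44980681 (minus strand) for Cd3g, chr9:44981536-44981835 (plus strand) for Cd3d and chr9:45009562-45009861 (minus strand) for Cd3e. Capitals mark the ETS core AGGAAG or its reverse complement CTTCCT.
Cd3g: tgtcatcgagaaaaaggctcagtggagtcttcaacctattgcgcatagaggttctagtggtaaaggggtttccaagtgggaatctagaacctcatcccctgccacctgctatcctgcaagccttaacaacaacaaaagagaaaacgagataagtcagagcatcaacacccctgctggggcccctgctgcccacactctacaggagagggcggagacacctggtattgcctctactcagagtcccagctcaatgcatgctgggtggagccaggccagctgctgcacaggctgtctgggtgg
Cd3d: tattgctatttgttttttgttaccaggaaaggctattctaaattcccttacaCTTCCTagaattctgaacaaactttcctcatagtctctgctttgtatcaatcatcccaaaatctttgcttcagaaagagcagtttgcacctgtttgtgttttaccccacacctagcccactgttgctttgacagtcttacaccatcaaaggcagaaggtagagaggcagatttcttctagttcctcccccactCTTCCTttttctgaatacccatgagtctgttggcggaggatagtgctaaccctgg
Cd3e: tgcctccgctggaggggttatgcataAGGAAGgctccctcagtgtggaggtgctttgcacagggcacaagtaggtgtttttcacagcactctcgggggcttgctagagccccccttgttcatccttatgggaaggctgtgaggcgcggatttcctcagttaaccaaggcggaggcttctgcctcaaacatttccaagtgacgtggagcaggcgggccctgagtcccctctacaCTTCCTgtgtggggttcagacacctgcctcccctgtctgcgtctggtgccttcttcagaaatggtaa

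The Cd3g and Cd3d windows are separated by 854 bases. Cd3d and Cd3e held 2 matches to the ETS core each and Cd3g held 0, while 35.4% of all 32817 windows of this length in the RefSeq table held at least 1. The RUNX letters TGTGGT and the TATA box letters TATAAA, searched on both strands, matched in 0 of these 3 windows, against 16.8% and 13.6% of all windows. No match overlapped another motif. A match of letters is a description of these windows, not a binding site.

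Among the CD3 chains, Cd3e was the one with a clear signal. Cd3e (probe set 10593024) encodes CD3 epsilon, which pairs with the gamma and delta chains. It read 0.88, 1.20, 1.51 and 2.36 on rejecting arrays 1 to 4. It read 1.05, 0.57, 2.75 and 3.82 on tolerant arrays 1 to 4. The 4 arrays numbered 3 and 4 were all higher than the 4 numbered 1 and 2, and across all 8 arrays the groups overlapped. On the arrays numbered 3 and 4 both tolerant samples lay above both rejecting ones, and all 4 lay above their background lines. Of the arrays numbered 1 and 2, rejecting array 2 alone lay above its line, by 0.05.

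Cd3g (10593015) encodes CD3 gamma, the partner of epsilon in a heterodimer. Arrays 1 to 4 read 0.68, 1.02, 0.91 and 1.11 under rejection, against 0.89, 0.42, 1.28 and 1.90 under tolerance. Tolerant arrays 3 and 4 were the only ones above their lines, and rejecting arrays 3 and 4 lay just below theirs. Between the groups Cd3g overlapped over 8 arrays and did not overlap on the arrays numbered 3 and 4.

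Cd3d (10584821) and Cd247 (10351353), the delta chain and the zeta chain with its several ITAMs, did not exceed the line on any of the 8 arrays. Cd3d read 0.54, 0.37, 0.53 and 0.54 under rejection, against 0.61, 0.72, 0.62 and 0.39 under tolerance. Cd247 read 0.55, 0.27, 0.62 and 0.66 under rejection, against 0.55, 0.66, 0.70 and 0.72 under tolerance. These values lie near the array medians of 0.468 to 0.521, in cells isolated for a receptor complex of which both chains are usual parts. Whether these 2 probe sets respond to their transcripts was not tested. Small differences between groups at this level do not show that expression was alike.

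The kinase and the adaptor were near background as well. Zap70 (10345509), the kinase that binds phosphorylated ITAMs, read 0.90, 0.69, 0.78 and 0.84 under rejection, against 0.58, 0.96, 0.79 and 1.09 under tolerance. Tolerant array 4 alone was above its line. Lat (10567825) read 0.42, 0.40, 0.55 and 1.20 under rejection, against 0.31, 0.30, 0.73 and 0.75 under tolerance. Its highest value, on rejecting array 4, was the 1 value above a line, by 0.05, and the arrays numbered 3 and 4 all exceeded those numbered 1 and 2.

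Of the surface proteins, Thy1 and Cd5 were measurable and Cd2 was not. Thy1 (10584628) read 1.59, 0.74, 1.91 and 1.89 under rejection, against 0.95, 1.13, 1.87 and 2.42 under tolerance. It exceeded the line on the 4 arrays numbered 3 and 4 and on rejecting array 1. Cd5 (10466040) read 0.96, 0.84, 1.33 and 1.22 under rejection, against 1.46, 1.05, 1.30 and 1.97 under tolerance. It exceeded the line on the arrays numbered 3 and 4 and on tolerant array 1, and tolerant array 4 was the highest. Cd2 (10500677) read 0.83, 0.95, 0.99 and 0.99 under rejection, against 0.96, 0.80, 0.83 and 1.23 under tolerance, with tolerant array 4 alone above its line. In each of these 3 genes the groups overlapped over the 8 arrays.

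**Figure D1:**
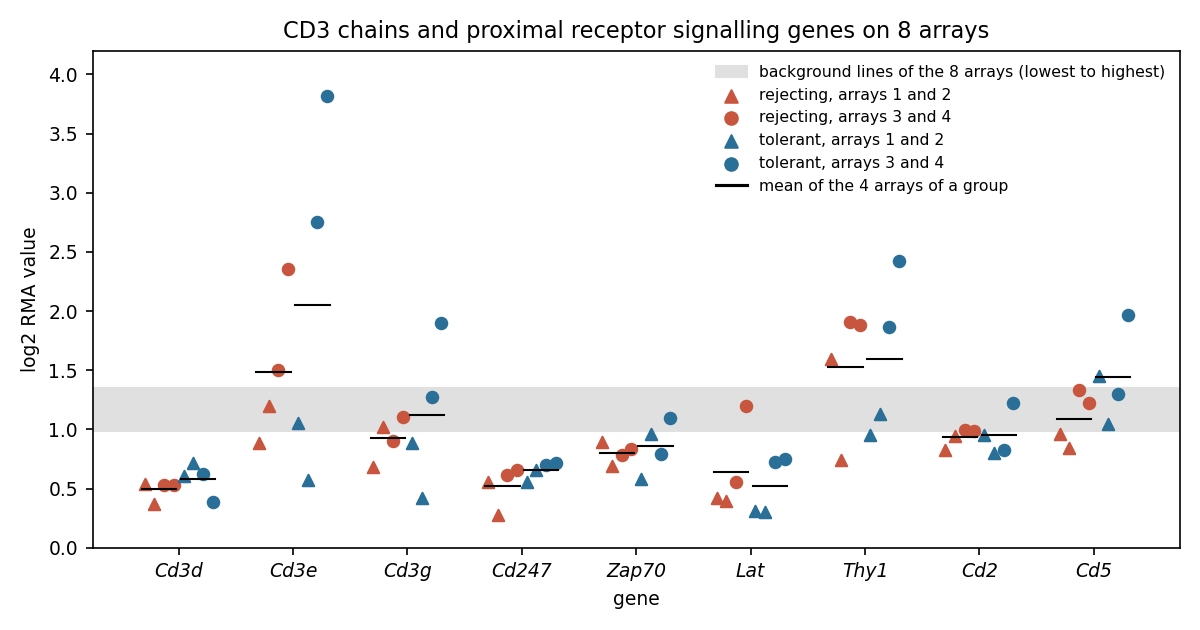
Log2 RMA value (y axis) of the 9 measured genes (x axis) on each of the 8 arrays, rejecting in red and tolerant in blue, with triangles for arrays 1 and 2 and circles for arrays 3 and 4. Black bars are group means (n = 4) and the grey band spans the arrays' background lines from 0.991 to 1.35; Cd3e reaches 3.82 on tolerant array 4 while Cd3d and Cd247 stay below the band on all arrays.

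Of the 72 values of the 9 genes, 20 lay above their array's line, 17 of 36 on the arrays numbered 3 and 4 and 3 of 36 on those numbered 1 and 2. Of all genes, 9.09% to 16.3% lay above the line on arrays 3 and 4 and 2.51% to 5.57% on arrays 1 and 2. By mean, 8 of the 9 genes were higher on the arrays numbered 3 and 4, Cd3d being the exception at -0.04. The difference between the means of these sets was 1.68 for Cd3e, 0.92 for Thy1, 0.54 for Cd3g, 0.45 for Lat and 0.38 for Cd5. For Cd3e, Lat and Thy1 the values of the 2 sets did not overlap. Shares of all probe sets were not counted for this or for the order by mean, so neither count sets the receptor genes apart from other genes. The sets were distinguished on these data, so no test was made of the difference between them.

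Over all 8 arrays, the test between the groups called none of the 9 genes. In limma, 0 of 9 had an adjusted p under 0.05, where 0% of all 21218 probe sets did, and 0 of 9 had an unadjusted p under 0.05, where 2.89% did. That count was 1 of 9 without tolerant replicate 2, with the replicate number as a block and with the array set as a block. Groups that did not overlap occurred in 0 of 9 genes and in 2.22% of all probe sets. Cd3e averaged 1.49 ± 0.63 under rejection and 2.05 ± 1.51 (SD, n = 4 each) under tolerance. Its difference was 0.56 (SE 0.66, limma adjusted p = 1). Cd5 averaged 1.09 ± 0.23 and 1.44 ± 0.39 (SD, n = 4 each), so that the groups differed by 0.35 (SE 0.19, limma adjusted p = 1).

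Differences over 8 arrays were 0.19 for Cd3g, 0.13 for Cd247, 0.09 for Cd3d, 0.05 for Zap70, 0.01 for Cd2 and -0.12 for Lat. Thy1 had 0.06, which became -0.02 after quantile normalization. The members' median was 0.09, beside 0.00 over all probe sets, and 8 of 9 were higher in tolerant samples by any amount, against 50.1% of all probe sets. That count rested on 1 sample, being 3 of 9 with a median of -0.03 without tolerant replicate 4, and Cd3e then had a difference of -0.03. It was 7 of 9 after quantile normalization.

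On the arrays numbered 3 and 4, Cd3e and Cd3g had the largest differences of the 9 genes and neither passed the test. Cd3e averaged 1.93 ± 0.60 under rejection and 3.29 ± 0.75 (SD, n = 2 each) under tolerance, so that the groups differed by 1.36 (SE 0.42, limma adjusted p = 0.572, range over the alternatives 0.0889 to 0.86). Cd3g averaged 1.01 ± 0.14 and 1.59 ± 0.44 (SD, n = 2 each), so that the groups differed by 0.58 (SE 0.22, limma adjusted p = 0.669, range 0.481 to 0.898). Without tolerant replicate 4 these differences were 0.82 and 0.27, and without tolerant replicate 3 they were 1.89 and 0.89. In limma, 0 of 9 genes had an adjusted p under 0.05, against 0.0518% of all probe sets. At an unadjusted p under 0.05 there were 2 of 9, against 7.21% of all probe sets. That count was 4 without tolerant replicate 3, 0 without tolerant replicate 4 and 1 without either rejecting replicate.

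The other members differed less on these 4 arrays. Cd5, Thy1, Zap70, Cd247 and Cd2 had differences of 0.36, 0.25, 0.13, 0.07 and 0.04, and Cd3d and Lat had -0.03 and -0.13, each with a limma adjusted p between 0.772 and 0.969. Tolerant above rejecting without overlap was seen for Cd3e, Cd3g and Cd247, or 3 of 9, and for 19.3% of all probe sets (39.4% counting either direction). The members' median was 0.13 beside -0.01 over all probe sets, and 7 of 9 were higher in tolerant samples, against 48.2% of all. Without tolerant replicate 4 the count was 5 of 9 and the median 0.02, and without tolerant replicate 3 the median was 0.28.

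On the arrays numbered 1 and 2 the order of the groups was not the same. Cd3e averaged 1.04 ± 0.22 under rejection and 0.81 ± 0.34 (SD, n = 2 each) under tolerance, so that the groups differed by -0.23 (SE 0.21, limma adjusted p = 0.95). Cd3g had -0.20 and Thy1 -0.12, while Cd5 had 0.35. The 0.36 of Cd5 on the other set ran from 0.023 without tolerant replicate 4 to 0.69 without tolerant replicate 3, and its 0.35 over 8 arrays from 0.18 to 0.49. In limma 0 of 9 genes passed, as did 0% of all probe sets, and 0 of 9 had an unadjusted p under 0.05, where 5.15% of all did. This became 1 of 9 without rejecting replicate 2 or without tolerant replicate 2. Tolerant samples were higher in 3 of 9 genes, against 49.4% of all probe sets, and in 5 of 9 without rejecting replicate 1 or 6 of 9 without tolerant replicate 2. The groups did not overlap in 4 of 9 genes, Cd3d, Cd247 and Cd5 being higher and Lat lower under tolerance, against 34.3% of all probe sets. Most of these values lay below the line, so an absent difference and an absent signal cannot be told apart.

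The change of the difference from set to set was tested as an interaction, which called 0 of 9 genes and 0.0566% of all probe sets. For Cd3e the interaction was 1.58 (SE 0.52, limma adjusted p = 0.616). For Cd3g it was 0.78 (SE 0.33, limma adjusted p = 0.689), and these 2 genes had an unadjusted p under 0.05, as did 7.13% of all probe sets. The count of 2 became 0 without tolerant replicate 2, and 1 without rejecting replicate 2, rejecting replicate 3 or tolerant replicate 4, after quantile normalization, after leaving out dim probe sets and with all probe sets of the table. By any amount, 6 of 9 genes had an interaction above 0, against 50.2% of all probe sets, and 4 of 9 without rejecting replicate 1, tolerant replicate 2 or tolerant replicate 4. For Cd5 it was 0.00 (SE 0.31).

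**Figure D2:**
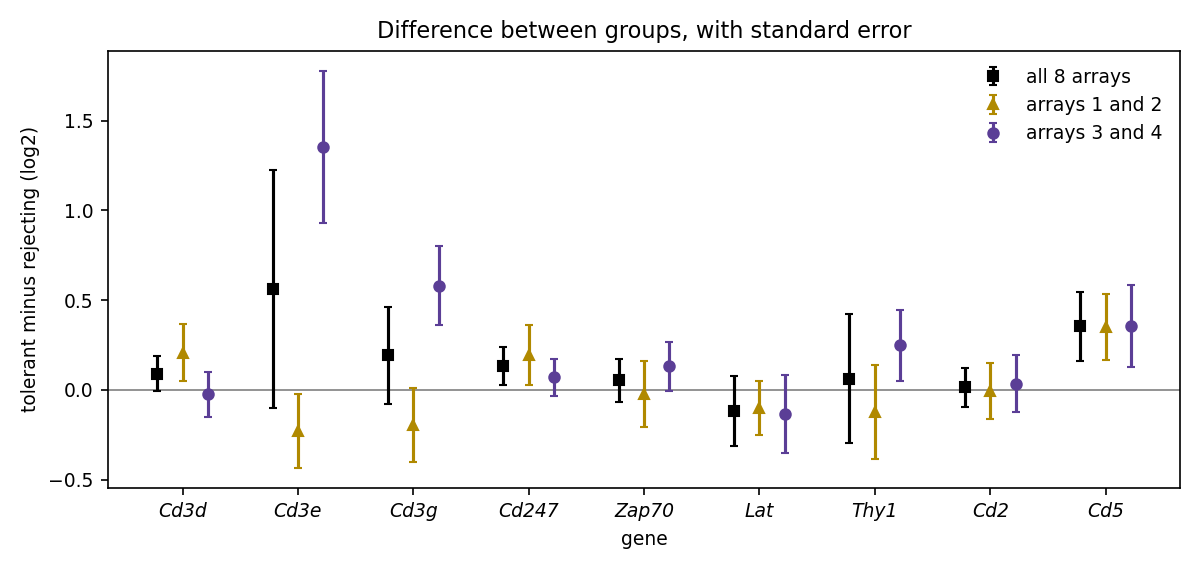
Tolerant minus rejecting difference in log2 (y axis) for the 9 genes (x axis), over all 8 arrays (black squares), arrays 1 and 2 (yellow triangles) and arrays 3 and 4 (purple circles), with bars of 1 standard error from limma. Cd3e sits at 1.36 on arrays 3 and 4 and at -0.23 on arrays 1 and 2, and Cd5 lies between 0.35 and 0.36 in all of them.

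The rest of the pathway was read from lists of 67 genes arranged by role, of which 64 had a probe set. None of the 64 passed in limma over all 8 arrays, on either set or in the interaction, with 2, 5, 2 and 2 genes at an unadjusted p under 0.05 over all 8 arrays, on arrays 3 and 4, on arrays 1 and 2 and in the interaction. The shares of all probe sets at that p were 2.89%, 7.21%, 5.15% and 7.13% in the same order. Above the background line, 33 of the 64 were found on 0 arrays. Grb2, an adaptor made in most cell types and named after its values were seen, was the 1 gene above it on all 8.

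Of 19 measured kinases, adaptors and enzymes next to the receptor, 12 were higher in tolerant samples on arrays 3 and 4, with a median of 0.02. Fyn, the Src family kinase that acts beside Lck, had a difference of 0.58 (limma adjusted p = 0.268). Its rejecting values were 0.60 and 0.57 and its tolerant values 1.10 and 1.23, which put only the tolerant samples above their lines. Rasgrp1, which activates Ras in response to diacylglycerol, had 0.64, with 0.98 and 0.92 under rejection and 1.45 and 1.73 under tolerance (limma adjusted p = 0.323). Lcp2, which encodes SLP-76, the adaptor recruited to Lat, had 0.68 (limma adjusted p = 0.656), with 0.36 without tolerant replicate 4 and 1.01 without tolerant replicate 3.

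Among 16 measured negative regulators, 12 were higher and the median was 0.12. Dgka, the diacylglycerol kinase that opposes Rasgrp1, read 1.10 and 1.15 under rejection and 2.19 and 2.09 under tolerance. Its difference of 1.02 with a standard error of 0.11 did not pass (limma adjusted p = 0.105), but passed as a contrast within a fit of all 8 arrays (limma adjusted p = 0.0142, range over the alternatives 0.0142 to 0.536). That contrast called 81 of 21218 probe sets, against 11 in the fit of arrays 3 and 4 alone. Ptpn6, the phosphatase SHP-1, had -0.36 and Ubash3b, a phosphatase that restrains Zap70, had 0.21, and neither passed. Ptpn6 exceeded the background line on 1 of the 8 arrays and Ubash3b on 0.

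The coreceptors and costimulatory proteins had 5 of 12 genes higher and a median of -0.07. Cd8b1 and Cd27 had 0.26 and 0.14, and Ly9, a SLAM family receptor, had -0.21. Of the early response genes, 8 of 12 were higher with a median of 0.06. Jun and Nfatc1, transcription factors downstream of the receptor, had 0.36 and 0.17, and Irf4 had -0.18. Leaving out rejecting replicate 3 or 4 moved Jun to 0.54 or 0.18 and Ly9 to -0.37 or -0.05. Leaving out tolerant replicate 3 or 4 moved Cd27 to 0.22 or 0.066, Nfatc1 to 0.24 or 0.10 and Irf4 to -0.08 or -0.28. On this set the median of all probe sets was -0.01. Over the 8 arrays Cd8b1 exceeded the background line on 4 and Jun on 3. Cd27 and Nfatc1 did so on 1 array each, and Ly9 and Irf4 on 0.

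**Figure D3:**
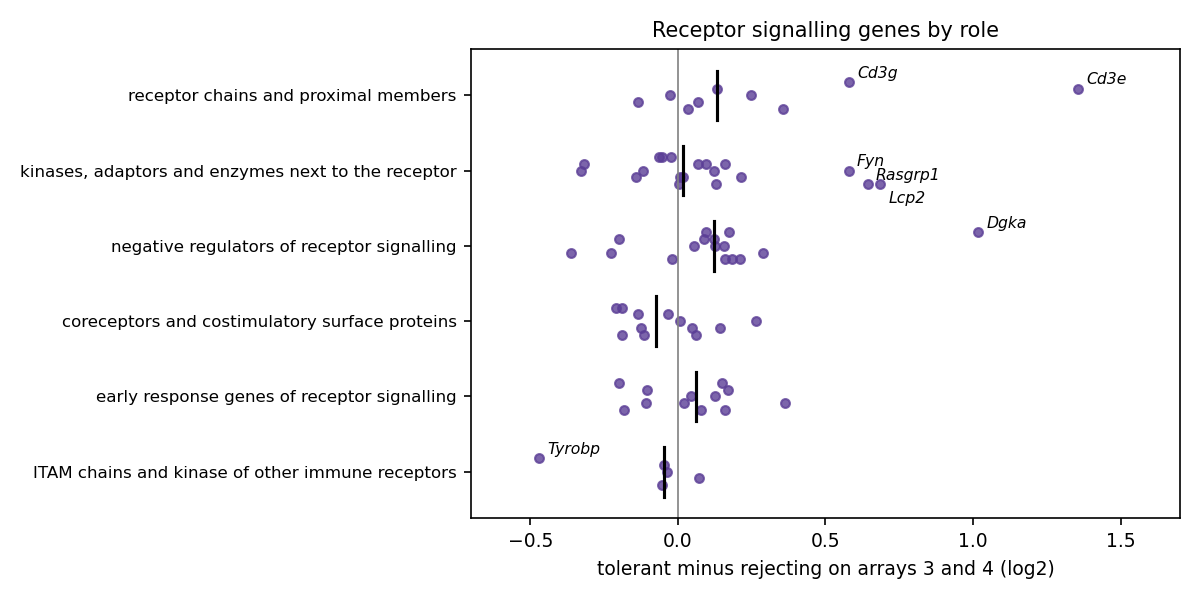
Tolerant minus rejecting difference in log2 on arrays 3 and 4 (x axis) for each measured gene of the receptor pathway, 1 point a gene, grouped by role (y axis), with a black bar at each list's median and names at differences of at least 0.45 in size. Cd3e at 1.36 and Dgka at 1.02 lie farthest to the right, and list medians run from -0.07 to 0.13.

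On the arrays numbered 3 and 4 the summed markers of fibroblasts, kidney tubule and macrophages, like Cd3e, were higher on both tolerant arrays than on both rejecting ones, and their part in its difference was not tested. Within both groups Cd3e was higher on array 4 than on array 3, and the fibroblast sum was lower. The macrophage sum was lower on array 4 under rejection and higher under tolerance, and the kidney tubule sum the reverse. Each of these orders sets 1 array beside 1 other and was not tested. Summed on the linear scale, taking the values as unshifted log2, the 9 receptor genes gave 19.1 and 22.4 under rejection and 23.6 and 36.2 under tolerance. The 10 fibroblast markers gave 32.3 and 26.2 under rejection and 81.9 and 68.9 under tolerance, and 10 of 10 were higher, with Lum, Pdgfra, Pdgfrb and Postn above the line on 0 arrays. Their brightest genes were the matrix genes Col1a1 and Dcn, with differences of 0.72 and 3.21 (limma adjusted p = 0.431 and 0.0581), and 1 gene of the list, Sfrp1, named for its call, passed. Thy1 is made by fibroblasts too, and its values overlapped between the groups on this set. The 10 kidney tubule markers gave 17.9 and 18.3 against 137 and 58.6, and 9 of 10 were higher, with Lrp2, Cubn and Kap above the line on 0 arrays. Umod read 1.76 and 2.06 under rejection and 6.6 and 4.6 under tolerance, a difference of 3.69 (limma adjusted p = 0.226). The transporter gene Slc12a3 rose by 2.93 (limma adjusted p = 0.0359). It was 1 of 2 genes of the list that passed, the other being Calb1, named for its call. The 12 macrophage and monocyte markers gave 28.5 and 18.1 against 40.5 and 46.8, and 9 of 12 were higher with a median of 0.38, with Adgre1, Cd14 and Fcgr1 above it on 0 arrays. The brightest of these, the complement genes C1qb and C1qc, were 2.00 and 0.83 higher, and neither passed. Of all probe sets on arrays 3 and 4, 0.0518% passed and 48.2% were higher in tolerant samples.

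Most markers of other lymphocytes that could carry some of these genes lay under the background line, as did most values of the receptor genes. A contribution of these cells was not tested. Of 7 measured B cell markers, 6 exceeded the line on 0 arrays, Ms4a1, Pax5 and Cd22 among them (Cd79a did on 1), and the summed level was 9.77 to 11.2 in rejecting and 9.20 to 10.4 in tolerant samples. Of 7 measured NK cell markers, 6 exceeded it on 0 arrays, Ncr1 and Klrb1c among them. The exception was Nkg7, which cytotoxic T cells also express. It had a difference of 0.96 on arrays 3 and 4 (limma adjusted p = 0.226). The list's summed level was 8.81 to 10.2 in rejecting and 8.85 to 11.8 in tolerant samples. On arrays 3 and 4 alone it was 9.57 to 9.94 and 10.35 to 11.77, with 3 of the 7 genes higher under tolerance. Mast cell and platelet markers, which matter because these cells use Lat, exceeded the line in 0 of 9 genes, and neutrophil and thymocyte markers in 0 of 7 and 0 of 4.

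On arrays 3 and 4, endothelial markers summed to 12.1 to 13.6 under rejection and 15.4 to 16.8 under tolerance, and epithelial markers to 14.9 to 16.1 and 16.8 to 19.3. Neuron markers, included because neurons make Thy1, summed there to 10.8 to 11.0 under rejection and 10.6 to 11.0 under tolerance. The 3 measured erythroid markers summed over all arrays to 4.29 to 4.69 under rejection and 4.71 to 7.77 under tolerance.

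**Figure D4:**
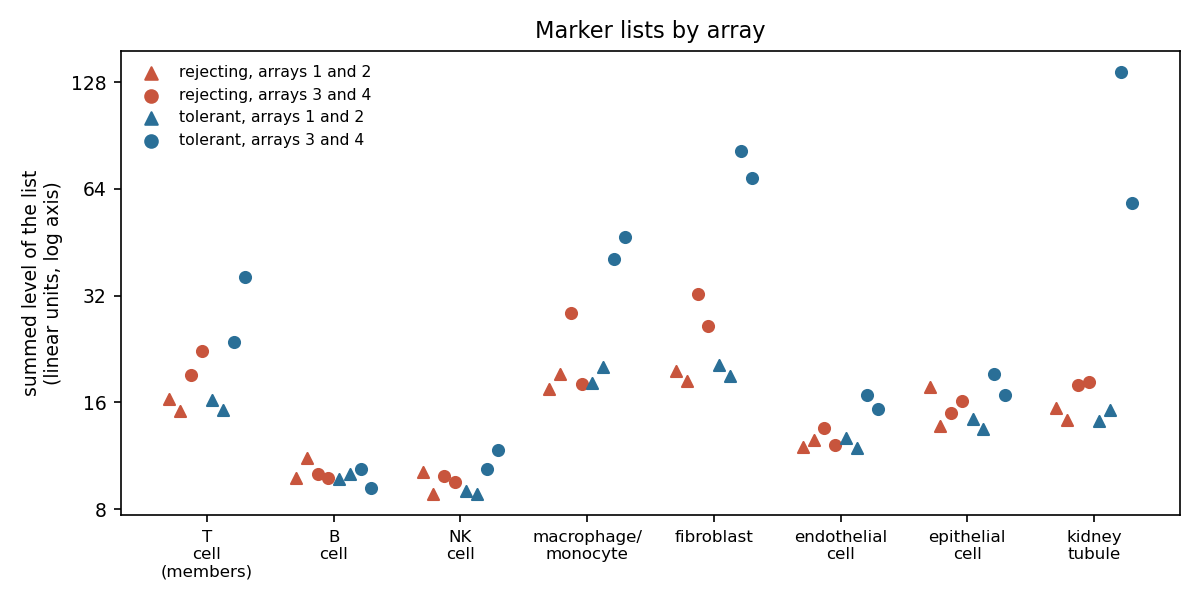
Summed linear level (y axis, log scale) of the 9 receptor genes and of 7 marker lists (x axis) on each array, rejecting in red, tolerant in blue, triangles for arrays 1 and 2 and circles for arrays 3 and 4. Tolerant arrays 3 and 4 lie highest for fibroblast (81.9 and 68.9), kidney tubule (137 and 58.6) and macrophage markers (40.5 and 46.8). They also lie highest for the receptor genes (23.6 and 36.2), endothelial (16.8 and 15.4) and NK cell markers (10.35 and 11.77). B cell markers stay between 9.20 and 11.2.

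Likeness to Cd3e was the root mean square distance between profiles over the 8 arrays, each centred on its own mean. Sumo2, a ubiquitin-like modifier, was closest at 0.32, followed by the small GTPase Rhoa at 0.33, the splicing factor Srrm2 at 0.34, the RNA-binding protein Mbnl1 at 0.35 and the calpain subunit Capns1 at 0.37. As named by the annotation, these 5 genes are expressed in most cell types, and where their probe sets map was not checked. The distance depends on the size of the variation, so a gene that varies little over the arrays is far from Cd3e whatever its pattern. The median distance over 18819 genes was 1.05. Of the receptor genes, Cd3g ranked 169 at 0.66, Thy1 222 at 0.69 and Cd5 765 at 0.82. The other 5 exceeded the line on at most 1 array and lay farther from Cd3e than Cd5 did. Lat ranked 1232 at 0.87, Cd2 3428 at 0.96, Cd247 4565 at 0.98, Zap70 4669 at 0.98 and Cd3d 12793 at 1.09.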

How the data were processed

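RNA of CD3-positive graft T cells was measured on 8 arrays, 4 per group. The authors deposited 35556 log2 expression values per array, and the submitters' processing notes name RMA in Affymetrix Expression Console. The sources used here give neither log base nor software version, and base 2 was taken from the range of the values. Array medians of 0.468 to 0.521 are low for RMA, and whether the values were shifted before deposit is not known. A shift would alter levels and summed linear levels. RMA equalises distributions between arrays, so a general difference in signal is in part removed, and low values are compressed, which understates differences of dim genes. The number of arrays limits the precision.

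Gene names came from the platform annotation. The 21218 probe sets with 1 symbol were fitted together in limma 3.58.1 (R 4.3.3; lmFit and eBayes, no trend, 2-sided), with Benjamini-Hochberg adjustment over all of them and a threshold of 0.05. The fits used all 8 arrays, the arrays numbered 3 and 4, those numbered 1 and 2, and an interaction. The fitting code was checked on simulated data with large known changes and a capped spread, which tests the code and not the power of these designs. Same-numbered arrays of opposite groups deviated from their group means together, with correlations across probe sets of 0.499, 0.507, 0.41 and 0.599 for numbers 1 to 4. The pairing comes from the data, not from the labels, and differently numbered arrays within a set correlated across groups by 0.411 to 0.581. Blocked fits are therefore alternatives.

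The members, the lists and the division into array sets were chosen with earlier results of these data known. All 9 measured members are named, with the 3 genes of each pathway list of smallest unadjusted p on arrays 3 and 4, the 2 brightest genes of a marker list where set beside a result, and the 5 nearest to Cd3e. Other genes are named as defining markers at background or are marked as named for their values. For genes other than members the probe set of highest mean was used. Plots were drawn with matplotlib 3.10.9.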

Additional observations from a re-analysis of the deposited data

Results flagged for a closer look

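Among 24 receptor and pathway genes examined in both groups, 3 of 48 sets of 4 arrays held a value far from the other 3 by Dixon's criterion, and chance alone gives about 1 in 20 such sets. Cd3d read 0.37 on rejecting array 2, below the other rejecting arrays at 0.53 to 0.54, and all of these are under the background line. Lcp2 read 1.33 on rejecting array 4, above the 0.82 to 0.90 of the others. Tyrobp, an ITAM chain of myeloid and NK cells, read 2.39 on rejecting array 3, above the 0.77 to 1.02 of the others.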

How the results depend on the processing

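No alternative gave a called receptor gene: the count was 0 of the members tested in each of the 50 alternatives over the 4 comparisons, including the replicate block. With that block Cd3e on arrays 3 and 4 kept its difference of 1.36 (SE 0.12, limma adjusted p = 0.0889), and the block changed no member's call. Over 8 arrays no alternative called a probe set of any gene, and in the other comparisons few or none were called. The count of 0 therefore does not set the receptor genes apart from other genes. Leaving out dim probe sets kept 4 of 9 genes over 8 arrays and on arrays 3 and 4, and none on arrays 1 and 2, where it gave no value. Where leaving out 1 array leaves a lone sample in an arm, that sample is assumed to vary like the others. Quantile normalization turned Thy1 over 8 arrays to -0.020, and Dgka on arrays 3 and 4 (1.02) passed only as a contrast from the fit of 8 arrays (limma adjusted p = 0.0142).

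Leaving out each array in turn, differences over 8 arrays ran from -0.027 to 1.06 for Cd3e, -0.067 to 0.43 for Cd3g, -0.025 to 0.15 for Zap70, -0.20 to 0.067 for Lat, -0.21 to 0.28 for Thy1 and -0.077 to 0.064 for Cd2. On arrays 3 and 4 they ran from -0.14 to 0.092 for Cd3d, -0.021 to 0.28 for Zap70, -0.46 to 0.19 for Lat, -0.031 to 0.53 for Thy1, -0.16 to 0.24 for Cd2, -1.20 to 0.26 for Tyrobp, -0.12 to 0.022 for Syk and -0.0035 to 0.15 for Cd79b. The cause of these turns was not tested. Cd3e, Thy1 and Cd5 exceeded the background line on 5 of 8 arrays and the other 6 genes on at most 2, and differences among values under the line are not resolved from those of silent genes.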

Other observations

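Other immune receptors use their own ITAM chains. Fcer1g, the common gamma chain of Fc receptors, named after its values were seen, read 0.51, 0.57, 1.86 and 0.72 on rejecting arrays 1 to 4 and 0.16, 0.11, 1.06 and 1.45 on tolerant arrays 1 to 4. As for Cd3e, the arrays numbered 3 and 4 all exceeded those numbered 1 and 2, but on arrays 3 and 4 the groups overlapped. Tyrobp, which encodes DAP12, read 2.39 on array 3 and 0.93 on array 4 under rejection, against 1.01 and 1.37 under tolerance. Its difference there was -0.47, and 0.26 without rejecting replicate 3. Syk, the kinase that takes the place of Zap70 in B cells and myeloid cells, and Cd79b, a chain of the B cell receptor, exceeded the background line on 0 arrays. On arrays 3 and 4, 1 of the 5 genes of this list was higher in tolerant samples, with a median of -0.05, and 0 passed in limma, with 0 at an unadjusted p under 0.05.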
